A study of Homo sapiens with 16 samples.

Results

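The cells that the authors named CD16-CDKN1C and that held at least 3000 unique molecular identifiers (UMIs, 1 for each captured RNA molecule) were described gene by gene in tumors of 2 mouse breast cancer models. There were 5924 such cells among 42033 cells of at least 3000 UMIs, of which 3998 came from long-term tumors, 1643 from short-term T22 tumors and 283 from short-term T127 tumors. The cells were chosen by measured values, namely the cluster name, which rests on gene expression in the same cells, and the UMI total. Comparisons with other clusters are therefore descriptions, and no test was made of them. Where a 16-base barcode occurred in more than 1 long-term pool, only the copy with the most UMIs was kept.

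LPA1-T22 (T22) and LPA1-T127 (T127) are syngeneic transplant tumors that come from transgenic mice expressing the LPA1 receptor in the mammary epithelium. Tumor chunks were placed in the mammary fat pad of female FVB mice, 6 weeks of age, which received vehicle or olaparib, an inhibitor of poly(ADP-ribose) polymerase, at 50 mg/kg daily. Short-term T22 and short-term T127 tumors were treated for 4 or 8 days and captured in 4 pools each, and long-term tumors of both strains, transplanted singly or together, were treated for 20 days and captured in 8 pools. Each pool mixed hashtagged tumors and no file used here ties a cell to its tumor, so each experiment counts as 1 sample, vehicle and olaparib are not separated, and pools are given as ranges.

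Monocytes leave the blood for tissues, where many become macrophages. Classical mouse monocytes carry Ly6C, whereas nonclassical monocytes patrol vessel walls, depend on the nuclear receptor NR4A1 and carry receptors such as CX3CR1, TREML4, CD300e and FCGR4. In human blood, nonclassical monocytes are recognised by the Fc receptor CD16 and express CDKN1C, an inhibitor of cyclin-dependent kinases. CD68 is a lysosomal glycoprotein of monocytes and macrophages, and ADGRE1 is the F4/80 antigen of mouse macrophages.

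The name was first set against its own genes. Levels are given in CPM, the UMIs of a gene summed over all cells of a set and scaled to a common total, and the comparison cells were those of at least 3000 UMIs in the 6 clusters Macro-M1, Macro-M2, Macro-MKI67, Macro-others, CD14-IL1B and CD14-PF4. Cdkn1c gave 57 UMIs in the 3998 long-term cells, or 1.90 CPM (exact Poisson 95% interval 1.44 to 2.46, for counting error only), against 1.92 CPM in the other clusters. It gave 27 UMIs in T22, or 2.37 against 2.63 CPM, and 1 UMI in T127, or 0.558 against 2.33 CPM. Ranked by Cdkn1c among the deposited clusters, CD16-CDKN1C came 14 of 21 in the long-term experiment, 12 of 18 in T22 and 10 of 14 in T127, and the inflammatory fibroblasts (i_CAF) came first in each with 129, 59.6 and 112 CPM. The gene in the name therefore did not set the cells apart from the clusters beside them.

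Depth was equalised to read shares of cells. With every cell thinned to 3000 UMIs, 0.525% of long-term CD16-CDKN1C cells had a Cdkn1c UMI (exact binomial 95% interval 0.325 to 0.802), against 0.604% of the other clusters, 0.723% of T cells and 1.19% of NK cells. The median depths before thinning were 6741.5, 10820.0, 5027 and 5822.5 UMIs, and the unthinned Cdkn1c shares were 1.28%, 1.92%, 1.205% and 1.59%. In T22 the thinned Cdkn1c share was 0.426% (0.171 to 0.876), against 0.736% in the other clusters and 0.350% in T cells, which lies inside that interval. In T127, 0 of 283 thinned cells had a Cdkn1c UMI, which allows a share of up to 1.30% by the exact interval. That limit holds for cells with a UMI at this depth, not for cells expressing the gene, and no reading is taken from T127. The long-term thinned share was no higher than in T and NK cells. In T22 the interval holds the shares of both the other clusters and T cells, so it does not choose between them. Unthinned, the T22 shares were 1.64% in CD16-CDKN1C cells, 3.20% in the other clusters, 0.734% in T cells and 0.769% in NK cells. Whether these UMIs are background was not tested.

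The lineage markers were present. Cd68 stood at 663 against 663 CPM in the long-term experiment, 459 against 438 in T22 and 472 against 412 in T127. After thinning, 78.3% of long-term, 70.8% of T22 and 67.8% of T127 CD16-CDKN1C cells had a Cd68 UMI, against 4.22%, 1.40% and 2.45% of T cells. Adgre1 stood at 109 against 103 CPM in the long-term experiment and 131 against 144 in T22, with overlapping pools. In T127 it was at 230.0 CPM, with pools from 183 to 293, against 93.6 to 104 in the other clusters, so that the pools did not overlap. The cells thus carried markers of the monocyte and macrophage lineage in each experiment, and they are called here by their deposited name.

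The mouse genes linked to CD16 gave a mixed answer. Fcgr3, an activating Fc receptor, stood at 428 against 431, 279.9 against 267 and 637 against 659 CPM in the long-term, T22 and T127 experiments, with overlapping pools in each. Fcgr4, which marks mouse nonclassical monocytes, stood at 67.6 against 70.4 CPM in the long-term experiment and 49.6 against 46.0 in T22, also with overlap. In T127 Fcgr4 was at 81.5 CPM, with pools from 65.7 to 119.6 against 23.3 to 37.8, and the pools did not overlap.

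**Figure D1:**
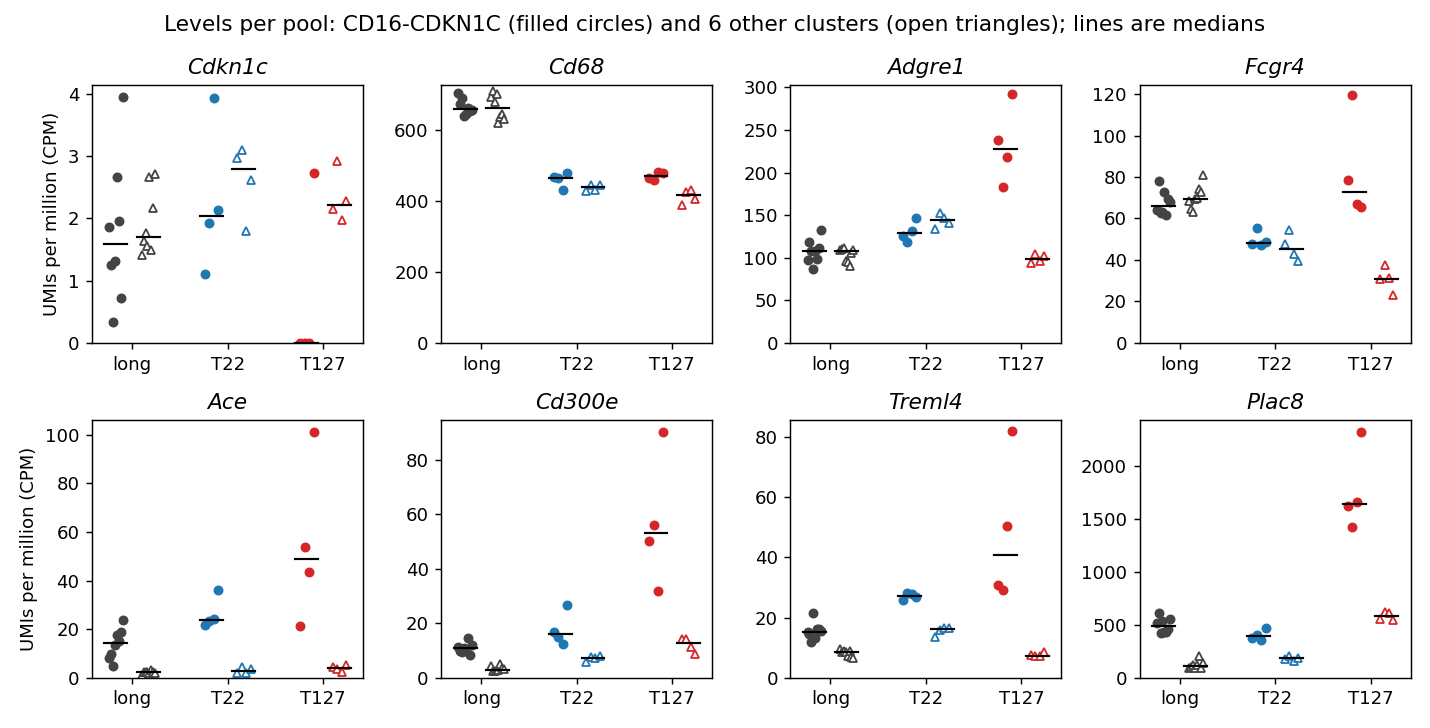
Levels in CPM (linear axes from 0) of 8 genes in each pool, with filled circles for CD16-CDKN1C cells, open triangles for the 6 other clusters and black lines for the median over pools. Cdkn1c lies under 4 CPM in every pool, and Ace, Cd300e, Treml4 and Plac8 are higher in CD16-CDKN1C cells with no overlap of pools in any experiment.

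CD16-CDKN1C cells were shallower than their neighbours. The median cell held 6741.5 UMIs against 10820.0 in the other clusters of the long-term experiment, 5347 against 13345 in T22 and 5822 against 12334.5 in T127. Among all monocytes and macrophages, the share named CD16-CDKN1C fell with each step in UMIs in each experiment. In the long-term experiment it was 95.8% of cells under 1500 UMIs, 84.7% from 3000 to 4000, 50.2% from 5000 to 7000, 28.3% from 7000 to 10000 and 7.98% at 15000 or more. It went from 99.8% to 6.19% over that range in T22 and from each of 50 cells to 0.946% of 634 cells in T127. Of the cells given the name, each barcode counted once, 33.1%, 60.9% and 29.6% lay under 3000 UMIs in the long-term, T22 and T127 experiments.

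The size of the cluster followed the minimum that was set. Above 3000 UMIs it made up 30.1% of monocytes and macrophages in the long-term experiment (exact binomial 95% interval 29.3 to 30.9, pools 23.5 to 36.7), 31.7% in T22 (30.5 to 33.0, pools 30.8 to 33.8) and 13.7% in T127 (12.2 to 15.2, pools 11.7 to 16.1). With no minimum the shares were 38.7%, 53.5% and 18.3%.

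**Figure D2:**
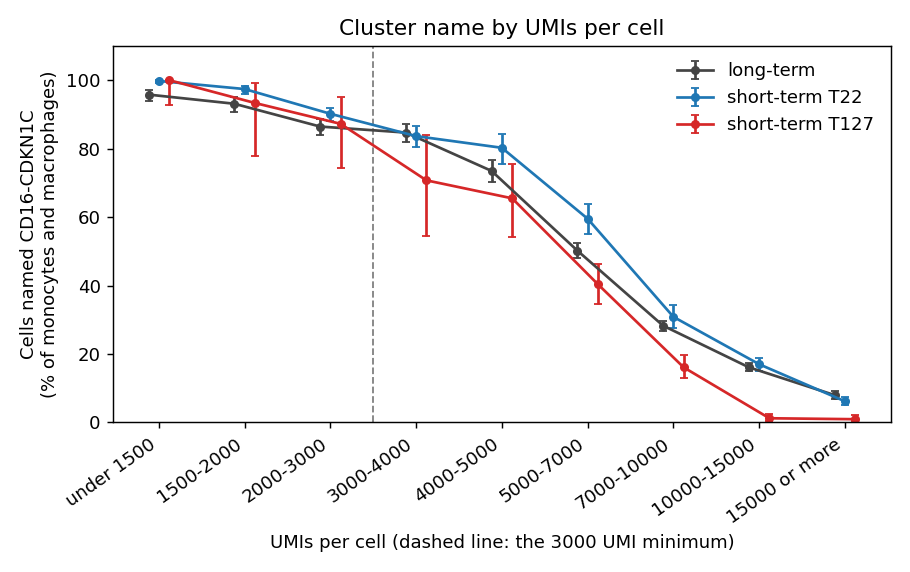
Percent of monocytes and macrophages named CD16-CDKN1C (y) against UMIs per cell (x), by experiment, with exact binomial 95% intervals and a dashed line at the 3000 UMI minimum. The share falls from at least 95.8% under 1500 UMIs to at most 7.98% at 15000 UMIs or more.

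The long-term pools held the same barcodes under different names. There were 4066 shallower copies named CD16-CDKN1C, with a median of 1667 UMIs against 10726 in the deepest copy of the same barcode. For 3172 of them (78.0%, exact binomial 95% interval 76.7 to 79.3) the deepest copy bore the name of 1 of the 6 other clusters, and for 878 (21.6%) it was also CD16-CDKN1C. Macro-M2 with 1369 and Macro-others with 1309 were the most frequent, followed by Macro-M1 with 305, Macro-MKI67 with 105, CD14-IL1B with 69 and CD14-PF4 with 15. Of the 397 shallower copies that themselves held at least 3000 UMIs, 348 (87.7%) had a deepest copy in the other clusters.

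Read the other way, the shallower copy of a macrophage was mostly named CD16-CDKN1C. This held for 89.4% of shallower copies of Macro-M2 cells and 93.2% of those of Macro-others cells, whereas 6.79% and 4.91% kept the name of the deepest copy. Shallower copies of CD16-CDKN1C cells kept their name in 93.4% of 940 cases. When the 3172 renamed copies were summed and set against their 2471 deepest copies, 0 of 6758 genes differed by 2-fold or more. Of the 3998 long-term cells kept, 795 had a shallower copy, and 4 T22 cells and 0 T127 cells shared a barcode with another pool of their experiment.

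At equal depth the cells showed nearly as many genes as their neighbours in the long-term and T127 experiments and fewer in T22. Thinned to 3000 UMIs, the median CD16-CDKN1C cell showed 1226 genes against 1228 in the long-term experiment, 1230.0 against 1318 in T22 and 1409 against 1415 in T127. Mitochondrial UMIs took a median of 0.595% against 0.562%, 0.826% against 0.835% and 1.05% against 1.00%. Ribosomal protein genes took 16.96% against 16.4%, 20.9% against 18.4% and 12.3% against 12.4% of UMIs.

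Across genes, the cluster and the sum of its neighbours had nearly the same profile in the long-term and T22 experiments. Genes of at least 10 CPM in either set were compared as log2 ratios after adding 1 CPM, and a gene was called at 2-fold or more. In the long-term experiment 19 of 6933 genes (0.274%) were higher and 33 (0.476%) lower in CD16-CDKN1C cells, and 97.7% lay within 1.5-fold. With equal weight for each of the 6 clusters the counts were 12 higher and 225 lower in the long-term experiment and 5 and 213 in T22, so that the near match holds for the summed neighbours. In T22, 11 of 7559 genes (0.146%) were higher and 52 (0.688%) lower, with 96.3% within 1.5-fold. In T127, 155 of 7930 genes (1.95%) were higher and 303 (3.82%) lower, with 84.1% within 1.5-fold. The median log2 ratio over all genes was -0.07 in T22, 0.01 in T127 and nearer to 0 in the long-term experiment.

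Set against each neighbour alone, the cells lay nearest to macrophage clusters. In the long-term experiment 1.01% of genes were at least 2-fold apart from Macro-M2, 1.66% from Macro-others, 1.82% from Macro-M1, 8.57% from Macro-MKI67, 13% from CD14-IL1B and 15.5% from CD14-PF4. In T22 the nearest was Macro-M1 at 0.7% and the farthest CD14-PF4 at 22.1%. In T127 the nearest was Macro-M2 at 3.71% and the farthest CD14-IL1B at 23.3%, and Macro-M1, with 3 cells there, was not compared. For scale, 3.17% of genes set Macro-M2 apart from the rest of the 6 clusters in the long-term experiment. For the small CD14-PF4 cluster that share was 15.7% with 98 long-term cells and 21.8% with 66 T22 cells.

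The nonclassical monocyte list held 13 genes, of which 12 could be tested in each experiment. Of these, 4 were called higher in long-term cells (Cd300e, Ace, Pglyrp1 and Adgre4), the same 4 in T22 and 9 in T127, and 0 were called lower, where 0.274%, 0.146% and 1.95% of all genes were called higher. The median log2 ratio of the list was 0.35, 0.48 and 1.67. Summed, the 13 genes stood at 860.0 against 725 CPM in the long-term cells, 1221 against 1259 in T22 and 1468 against 921 in T127, so that in T22 the sum was lower while the median was higher, and the sum was higher in 1 of 4 pools. Among them Ace, the angiotensin-converting enzyme, had the highest log2 ratio in each experiment.

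Ace was measured at low levels in every pool. The 8 long-term pools gave 8.07, 9.72, 4.98, 13.5, 17.7, 14.9, 18.6 and 23.7 CPM, all above the 1.15 to 3.36 CPM of the other clusters. The T22 pools gave 21.9, 23.2, 24.2 and 36.0 CPM against 1.89 to 4.24, and the T127 pools 21.4, 53.7, 43.6 and 101 CPM against 2.47 to 5.20. The pools did not overlap in any experiment, and the log2 ratios of the summed levels were 2.28, 2.81 and 3.44. Among cells thinned to 3000 UMIs, 4.05%, 3.29% and 9.19% had an Ace UMI, against 0.463%, 0.793% and 1.40% of the other clusters and 0.723%, 0.0699% and 0.490% of T cells.

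Other surface and secreted proteins of the list went the same way. Cd300e, an activating receptor of monocytes, stood at 10.9 against 3.35, 17.6 against 7.07 and 53.6 against 12.1 CPM in the long-term, T22 and T127 experiments. Adgre4, an adhesion receptor related to F4/80, stood at 12.6 against 2.70, 35.7 against 14.0 and 44.7 against 4.14 CPM. Treml4, a receptor that binds dead cells, stood at 15.5 against 8.16, 27.2 against 15.7 and 47.5 against 7.58 CPM and so was called in T127 alone. For these 3 genes the pools did not overlap in any experiment. Pglyrp1, a peptidoglycan-binding protein, stood at 32.6 against 8.99, 27.2 against 9.67 and 50.8 against 12.3 CPM, again without overlap. Among long-term and T22 cells of 8000 UMIs or more, each of these genes was under 2-fold higher. Cd300e stood there at 3.83 against 2.91 and 13.4 against 7.18 and Adgre4 at 3.24 against 2.58 and 23.9 against 13.9 CPM. Treml4 stood at 8.31 against 8.10 and 18.5 against 15.7 and Pglyrp1 at 10.4 against 8.91 and 15.7 against 9.53 CPM. In the shallower ranges each stayed higher.

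The remaining genes of the list were within 2-fold in long-term and T22 cells over all depths. Nr4a1, the receptor on which nonclassical monocytes depend, stood at 224 against 187, 251 against 328 and 509 against 536 CPM. Cx3cr1, the fractalkine receptor, stood at 228 against 219, 384 against 463 and 145 against 60.4 CPM, and so was slightly lower in T22 and called higher in T127. Pou2f2, a transcription factor, stood at 113 against 89.8, 222 against 222 and 242 against 53.5 CPM, and the T127 pools of 189.7 to 375 did not overlap the 50.8 to 59.2 of the other clusters. Itgal, the alpha chain of the integrin LFA-1, stood at 56.5 against 45.4, 131 against 116 and 109 against 79.6 CPM. Eno3 was at 20.7 against 15.7, 23.4 against 14.9 and 41.3 against 15.97, Ear2 at 60.9 against 70.7, 18.4 against 14.4 and 85.4 against 103 and Spn at 3.26 against 1.86, 7.11 against 4.94 and 5.58 against 2.05 CPM. Of these 7 genes, Cx3cr1, Pou2f2 and Eno3 were called over all depths, each in T127. When both sets were limited to cells of 3000 to 5000 UMIs, with a 50 CPM minimum, Eno3 was called higher in long-term cells, where 17 of 2787 genes were. Nr4a1 was called higher in T22 cells of that range, where 25 of 2771 genes were, Fos, Jun, Ier2 and Atf3 among them. The other clusters held 160 T22 cells in the range. Among long-term cells of 8000 UMIs or more Ear2 was called lower, where 16 of 2638 genes were.

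CD16-CDKN1C cells were not always the highest cluster for these genes. In T22 the CD14-PF4 cells held 59.5 CPM of Ace, 129 of Adgre4, 75.3 of Treml4 and 492 of Ifitm6, all above the CD16-CDKN1C cells. In the long-term experiment CD14-PF4 held 776 CPM of Plac8 and 143 of Ifitm6.

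Plac8 and Ifitm6 were the genes of at least 50 CPM in the long-term experiment that were called higher in all 3. Plac8, an abundant transcript of circulating monocytes, stood at 492 CPM in long-term cells, with pools from 420.0 to 614, against 122. It stood at 402 against 183 CPM in T22 and 1733 against 584 in T127. Ifitm6, of the interferon-induced transmembrane family, stood at 51.4 against 14.9, 37.5 against 16.5 and 126 against 30.7 CPM, and the pools of neither gene overlapped. Of 12 classical monocyte genes, Ly6c2 and Plac8 were among those called higher in the long-term cells, Plac8 alone was called higher in T22 and T127, and 0 were called lower, beside 0.274%, 0.146% and 1.95% of all genes called higher. Ly6c2, which encodes a Ly6C antigen and was singled out after its values were seen, stood at 144 against 50.6, 48.6 against 39.2 and 756 against 381 CPM. At matched depth the long-term Ly6c2 levels were 325 against 318, 290.2 against 199 and 21.4 against 29.1 CPM over 3000 to 5000, 5000 to 8000 and at least 8000 UMIs, so that the 2-fold excess was not seen in any range.

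The monocyte signal moved with depth. At 3000 to 5000, 5000 to 8000 and at least 8000 UMIs, Ace stood at 63.5 against 13.6, 14.9 against 2.87 and 1.41 against 2.03 CPM in the long-term experiment, where 1171, 1310 and 1517 CD16-CDKN1C cells lay. Plac8 stood at 1157 against 532, 886 against 323 and 115 against 91.6 CPM in the same ranges. At 8000 UMIs or more neither gene was 2-fold higher, and Ace was lower than in the other clusters. In T22, Ace stood at 21.4 against 0, 69.9 against 10.6 and 11.3 against 2.55 CPM and Plac8 at 72.2 against 1.62, 600.0 against 285 and 477 against 179.9, so that both stayed higher in each range.

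In T127 several excesses were not seen at matched depth. Plac8 stood at 1886 against 2237, 2268 against 2529 and 491 against 396 CPM over the 3 ranges, Ifitm6 at 132 against 189, 177 against 180.3 and 15.1 against 16.04 and Ly6c2 at 799 against 1227, 1058 against 1823 and 86.1 against 245. Ifitm6 and Ly6c2 thus did not exceed the other clusters in any range, and Plac8 was lower in both shallower ranges. Ace at 121 against 11.47, 46.0 against 18.0 and 15.1 against 2.61 CPM and Cd300e at 40.2 against 0, 63.3 against 20.0 and 43.1 against 11.46 stayed higher. Treml4, Adgre4, Cx3cr1 and Pou2f2 were also higher in each range. So were Fcgr4, at 69.0 against 34.4, 97.0 against 59.1 and 58.1 against 28.2 CPM, and Pglyrp1, at 112 against 34.4, 41.9 against 23.0 and 23.7 against 11.2. From 5000 to 8000 UMIs the excess of Fcgr4 and Pglyrp1 was under 2-fold. The T127 ranges held 84, 155 and 44 CD16-CDKN1C cells and 41, 294 and 1455 other cells.

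Just inside and just outside the minimum, long-term cells held similar levels of Ace and Cd68 but not of Plac8. From 2500 to 3000 UMIs the 381 named cells held 75.8 CPM of Ace, 787 of Cd68 and 486 of Plac8, and from 3000 to 3500 UMIs the 317 cells held 92.3, 671 and 967. In T22 the 367 and 278 cells held 3.98 and 0 CPM of Ace and 443 and 527 of Cd68. In T127 there were 18 and 16 cells, with 101 and 137 CPM of Ace.

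Ace was held mainly by a minority of the cells. All monocytes and macrophages were thinned to 3000 UMIs and grouped again in each experiment without regard to their names, and the group with most nonclassical monocyte genes among its leading genes was picked out. In the long-term experiment this group held 782 cells and had Ly6c2, Plac8, Ace, Ly6i, Camp, Ngp, Pglyrp1, Adgre4 and Ifitm6 among its leading genes. It is left unnamed, since genes of classical and nonclassical monocytes led it together. Of its cells 547 (69.9%) were CD16-CDKN1C cells, which were 13.7% of the long-term CD16-CDKN1C cells, and 2.53% of the cells of the other clusters lay in it. The corresponding groups held 178 cells in T22, 86 of them CD16-CDKN1C cells (5.23% of the cluster), and 183 cells in T127, 49 of them CD16-CDKN1C cells (17.3%). These groups were built at a clustering resolution of 1, and their size depended on it. At a resolution of 0.5 the long-term group held 306 cells, 88.2% of them CD16-CDKN1C cells and 6.75% of the cluster, while the T127 group held 326 cells, with 24.4% of the cluster and 14.4% of the other cells against 7.49% at 1. The T22 group held 5.17% of the cluster at 0.5, and at 1.5 the shares were 13.7%, 5.36% and 17.3%.

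CD16-CDKN1C cells inside that group differed widely from those outside it. Ace stood at 141 inside and 1.55 outside CPM in the long-term cells, 508 inside and 0.370 outside in T22 and 339.7 inside and 1.97 outside in T127, and other cells outside the group held 2.02, 0.908 and 2.60 CPM. Plac8 stood at 4252 inside and 96.8 outside CPM in the long-term cells, 3637 inside and 228 outside in T22 and 7235 inside and 765 outside in T127. C1qa, a chain of complement C1q that macrophages make, stood at 532 inside and 9333 outside CPM in the long-term cells, 22.3 inside and 6417 outside in T22 and 11.2 inside and 7341 outside in T127. Adgre1 stood at 39.2 inside and 116 outside CPM in the long-term cells. Not all nonclassical monocyte genes followed Ace. Cx3cr1 stood at 69.3 inside and 244 outside CPM in the long-term cells, 199 inside and 394 outside in T22 and 82.1 inside and 156 outside in T127, and Fcgr4 at 61.3 inside and 68.2 outside, 80.6 inside and 47.9 outside and 37.3 inside and 89.3 outside CPM, so that Cx3cr1 was higher outside in each experiment and Fcgr4 in the long-term and T127 cells. Cd300e stood at 131 inside and 40.0 outside CPM in T127, still above the 12.3 of other cells outside the group. Cdkn1c did not mark the group, with 3.50 inside and 1.73 outside CPM in the long-term cells, 3.43 inside and 2.31 outside in T22 and 0 inside and 0.656 outside in T127. Since the groups were built from these genes, these values are descriptions. In T22 only 1 nonclassical monocyte gene, Ace itself, was among the leading genes of the group, beside 2 of classical monocytes. The T22 contrast of Ace thus follows in part from how the group was picked. With the group left out, 7 genes were called higher and 35 lower in the long-term cells, 3 and 53 in T22 and 159 and 344 in T127.

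**Figure D3:**
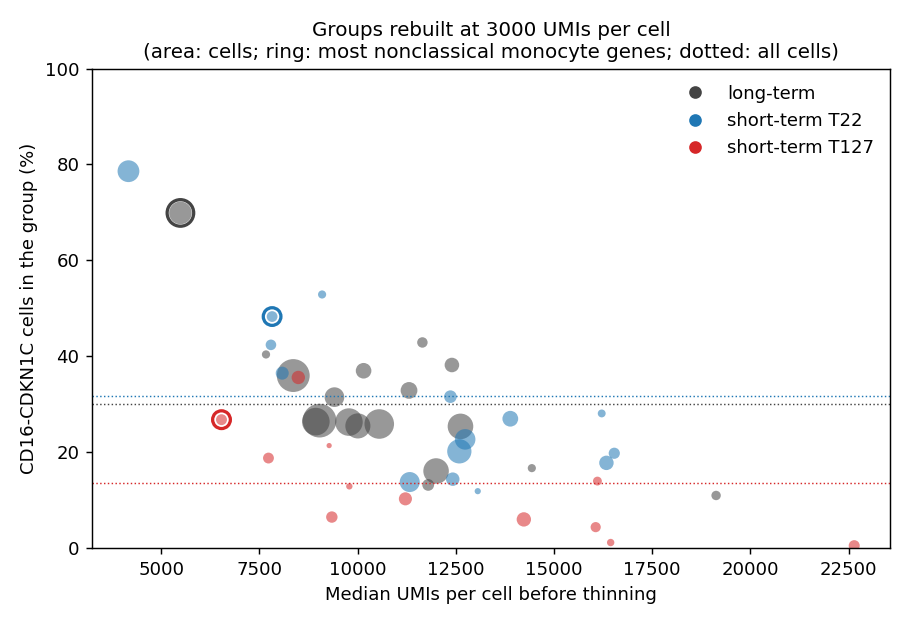
Each disc is 1 group of monocytes and macrophages rebuilt at 3000 UMIs per cell, placed by its median UMIs before thinning (x) and by the percent of its cells named CD16-CDKN1C (y), with area in proportion to cells and dotted lines at the share over all cells of the experiment. The ringed groups, with most nonclassical monocyte genes, hold 69.9% (long-term), 48.3% (T22) and 26.8% (T127) CD16-CDKN1C cells, and the T22 group at 4165 UMIs holds 78.6%.

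The other cells of the cluster were spread over many rebuilt groups. Long-term cells fell into all 18 groups, and the largest share in any was 15.0%, in a group led by Ighg1, Fzd7 and Kcnj10. Further groups were led by Il1a and Cxcl1 (11.6% of the cells), by Ccl8, Cd209f and Lyve1 (7.73%) and by the interferon-induced genes Rsad2 and Ifit2 (7.65%). Groups led by T-cell receptor genes (1.8%) or by the dendritic genes Xcr1 and Clec9a (0.7%) held few, but both groups were small, with 168 and 212 cells. They held 1.03% and 1.98% of the cells of the other clusters. CD16-CDKN1C cells made up 42.9% of the former group and 13.2% of the latter, against 30.1% of all long-term monocytes and macrophages. A spread over many groups was not particular to the cluster. Among the 6 other clusters the largest share in any long-term group ran from 17.2% (Macro-others) and 18.3% (Macro-M2) to 52.5% (Macro-MKI67). In T22 it ran from 19.6% (Macro-M2) to 65.2% (CD14-PF4). In T22, 34.8% of the CD16-CDKN1C cells lay in 1 group of 728 cells with a median of 4165 UMIs, led by Rapsn, Mt2 and Blvrb, of which 78.6% were CD16-CDKN1C cells. Krt14 was also among its leading genes. At a resolution of 0.5, 41.3% lay in a group of 910 cells with a median of 4225 UMIs, led by Wfdc18, Mia and Krt14. Ecrg4 and Cck were also among its leading genes, and Mia, Ecrg4 and Cck are malignant-cell genes of the sum given below. In T127, 34.6% of the CD16-CDKN1C cells lay in a group of 275 cells led by Cxcl13, Tpsab1 and Cp, of which 35.6% were CD16-CDKN1C cells.

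A count of genes per cell depended on where it was set. At 3000 UMIs, 4.10% of long-term CD16-CDKN1C cells (exact binomial 95% interval 3.51 to 4.76) showed 5 or more of the 13 nonclassical monocyte genes, against 0.474% of the other clusters. The shares were 4.26% against 2.01% in T22 and 11.7% against 1.23% in T127. At 3 or more genes they were 20.8% against 15.0% in the long-term experiment, 21.7% against 30.3% in T22 and 34.98% against 15.98% in T127, and at 4 or more 7.55% against 3.24%, 8.52% against 9.60% and 18.4% against 4.36%. The T22 order was thus the opposite at 3 or more genes, and at 4 or more the T22 intervals (7.22 to 9.98 and 8.64 to 10.6) overlapped.

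Core macrophage genes were abundant in the cluster and in its neighbours. Of 14 such genes, 0 were called in long-term and T22 cells, where over all genes 0.274% and 0.146% were called higher and 0.476% and 0.688% lower, so that a count of 0 says nothing particular to the list. Against 1.95% of all genes, Adgre1, C1qb and Apoe were called higher in T127, with list medians of 0.04, -0.09 and 0.45. C1qa stood at 8496 against 8791, 6089.8 against 5970.5 and 6245 against 3166 CPM and C1qb, its partner chain, at 5721 against 5931, 3814 against 3653 and 3401 against 1686. Lyz2, which encodes lysozyme, stood at 7959 against 7709, 6979 against 6423 and 15821 against 13572 CPM. Apoe, an apolipoprotein that macrophages secrete, was at 473 against 452, 1233 against 1204 and 515 against 157 CPM. Selenop, a selenium carrier of resident-type macrophages, was at 1180.2 against 1205, 674 against 641 and 1097 against 371 CPM and was called in T127 with Gas6 and Maf. At matched depth long-term Selenop stood at 1283 against 2041, 1157 against 1875 and 1164 against 1113 CPM over the 3 ranges. Of the resident-type list, Mrc1, Pf4 and Gas6 were called lower in long-term cells from 3000 to 5000 UMIs (50 CPM minimum), where 29 of 2787 genes were. Folr2 and Gas6 were called lower from 5000 to 8000, where 6 of 2703 genes were. None was called at 8000 or more, where 16 of 2638 genes were called lower. At matched depth in T127 Adgre1, C1qa, Lyz2, Apoe and Selenop were higher in each range. The excess was under 2-fold for Adgre1, Apoe and Selenop from 5000 to 8000 UMIs, for C1qa at 8000 or more and for Lyz2 throughout. Adgre1 stood at 247 against 80.3, 219.6 against 175 and 239 against 92.3 and C1qa at 5986 against 574, 6257 against 2061 and 6415 against 3286 CPM. Apoe stood at 647 against 34.4, 506 against 253 and 437 against 149.5 and Selenop at 1748 against 482, 1003 against 641 and 807 against 346 CPM.

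Cxcl13, a chemokine that attracts B cells, had the highest ratio among genes of at least 50 CPM in T127. It stood at 364 CPM, with pools from 63.4 to 632, against 29.6 in the other clusters, with pools from 4.72 to 74.5, so that the ranges overlapped. In T22 it stood at 0 in 3 pools and at 48.8 CPM in pool 4, and in the long-term cells at 29.98 against 33.0 CPM. The heat-shock genes Hspa1a and Hspa1b were also among the highest 6 in T127, at 380.2 against 74.2 and 245 against 37.7 CPM, with pools from 54.7 to 612 and 24.6 to 440.3 that overlapped the other clusters.

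Some inflammatory genes were lower in the short-term cells. Of 11 genes tested, 0 were called in the long-term cells, Tnf, Cxcl1, Cxcl2 and Ccl2 were called lower in T22, and Cxcl1, Cxcl2 and Nlrp3 were called lower in T127, with list medians of -0.14, -0.80 and -0.61. Over all genes 0.476%, 0.688% and 3.82% were called lower, so that the 0 of 11 in the long-term cells says nothing particular to the list. Il1b, which encodes interleukin-1 beta, stood at 3307 against 3496, 1454 against 2492 and 2083 against 3306 CPM, and Cxcl2, a neutrophil chemokine, at 2558 against 3371, 984 against 2307 and 1120.4 against 3663. At matched depth Cxcl2 stood at 395 against 171, 1050.4 against 1801 and 1233 against 2361 CPM in T22 and 696 against 5042, 1241 against 5096 and 1184 against 3523 in T127, so that the T22 order turned in the shallowest range.

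Some MHC class II genes were lower in T127. Of 9 genes, H2-Ab1, H2-DMb2 and H2-Oa were called lower there (3.82% over all genes) and 0 in the long-term and T22 cells (0.476% and 0.688% over all genes), with list medians of -0.13, -0.14 and -0.83 in the long-term, T22 and T127 cells. H2-Ab1, a class II beta chain, stood at 10775 against 11814, 11970.1 against 14459 and 3465 against 7255 CPM, and Cd74, the invariant chain, at 13251 against 13422, 11898 against 12957 and 3270.2 against 5534. At matched depth in T127 H2-Ab1 stood at 1863 against 969, 3338 against 1544 and 4929 against 7817 CPM and Cd74 at 2380.5 against 1405, 3080.0 against 1714 and 4337 against 5909, and so both were higher in CD16-CDKN1C cells below 8000 UMIs and lower above.

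**Figure D4:**
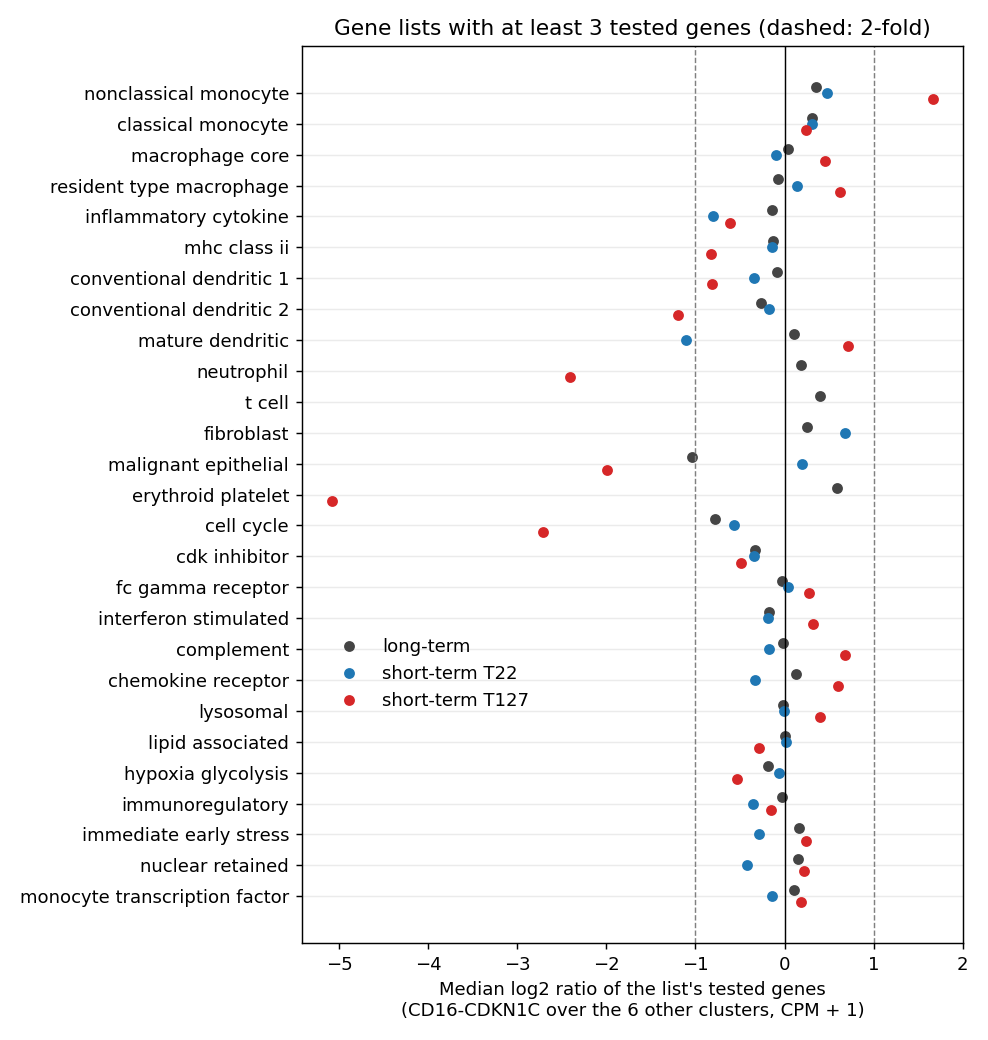
Median log2 ratio (x; CD16-CDKN1C over the 6 other clusters, CPM + 1) of the tested genes of each list (y), 1 point for each experiment with at least 3 tested genes and dashed lines at 2-fold. Nonclassical monocyte genes have medians of 0.35 (long-term), 0.48 (T22) and 1.67 (T127), and cell cycle genes -0.78, -0.57 and -2.71.

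Proliferation genes summed to less than in the other clusters, which include the cycling cluster Macro-MKI67. Of 10 cell cycle genes, 0 were called in the long-term cells, Mki67 and Top2a were called lower in T22 and 9 were called lower in T127, beside 0.476%, 0.688% and 3.82% of all genes. The 10 genes summed to 333 against 545 CPM in the long-term experiment, 587 against 969 in T22 and 203 against 909 in T127, lower in each of the 8, 4 and 4 pools. Mki67, a marker of cycling cells, stood at 52.5 against 89.9, 128 against 276 and 27.4 against 208 CPM and Top2a, a topoisomerase of dividing cells, at 69.4 against 135, 124 against 257 and 14.5 against 203. In T127 Mki67 stood at 23.0 against 166, 26.6 against 21.0 and 32.3 against 225 CPM at matched depth, so that the difference was not seen from 5000 to 8000 UMIs. Of the inhibitors of cyclin-dependent kinases 0 were called higher, which is near the share over all genes, and Cdkn2c was called lower in T127, at 11.7 against 26.2 CPM. Cdkn1a, which encodes p21, stood at 296 against 374, 103 against 183 and 538 against 810.5 CPM and Cdkn1b, which encodes p27, at 67.8 against 60.5, 69.8 against 79.1 and 114 against 111. Cdkn2a, Cdkn2b and Cdkn2d stood at 9.96 against 15.6, 3.53 against 4.49 and 29.3 against 33.2 CPM in the long-term cells.

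The Fc gamma receptor genes were close to level apart from Fcgr4 in T127. Fcgr1, the high-affinity receptor, stood at 377 against 370.0, 200.4 against 207 and 480.1 against 356 CPM, and Fcgr2b, the inhibitory receptor, at 446 against 476, 163 against 209.6 and 854 against 1076. Fcer1g, the signalling chain of the activating receptors, stood at 4033 against 3822, 2457 against 2105 and 3002 against 2349 CPM, and Fcgrt, the neonatal Fc receptor, at 106 against 117, 64.8 against 64.7 and 179 against 156. Of 11 interferon-stimulated genes 0 were called in any experiment, and of 10 lysosomal genes only Lgmn was, in T127, which is near the share over all genes (at most 0.688% in a direction in the long-term and T22 experiments, and 1.95% higher and 3.82% lower in T127).

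Among genes of at least 50 CPM in the long-term experiment, AA467197, Areg, Mgl2 and Hist1h1b were at least 2-fold lower in all 3. In the long-term cells none of these 4 was called lower at matched depth below 8000 UMIs (with a 50 CPM minimum), and AA467197, Areg and Mgl2 were at 8000 or more. Areg, which encodes the growth factor amphiregulin, stood at 19.4 against 55.3, 3.77 against 13.5 and 21.8 against 228 CPM and AA467197 at 19.1 against 75.9, 0.614 against 3.44 and 41.3 against 261, which in T22 was under the 10 CPM needed for a call. Hist1h1b, a histone gene of S phase, stood at 97.1 against 199, 135 against 318 and 8.37 against 475 CPM. Mgl2, a lectin of dendritic cells and macrophages, stood at 76.5 against 161, 21.8 against 62.1 and 83.7 against 339.5 CPM. At matched depth Mgl2 stood at 46.6 against 65.2, 82.4 against 57.0 and 81.8 against 175 CPM in the long-term cells, 3.51 against 0, 21.8 against 13.9 and 30.3 against 65.4 in T22 and 43.1 against 11.47, 42.9 against 15.5 and 200.2 against 371 in T127. It was thus 2-fold lower only at 8000 UMIs or more in the long-term and T22 cells, and its order was turned from 5000 to 8000 UMIs in each experiment. From 3000 to 5000 UMIs the other clusters held 618928 UMIs in T22 and 174347 in T127, too few to give an order at these levels.

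Genes of other lineages were mostly low. Xcr1, a receptor of cross-presenting dendritic cells, was called lower in each experiment, at 2.93 against 12.1, 19.8 against 49.0 and 0.558 against 33.4 CPM, and was singled out after its values were seen. Of the list of this dendritic cell type, 1 of 7, 1 of 9 and 4 of 8 tested genes were called lower (0.476%, 0.688% and 3.82% over all genes), with medians of -0.08, -0.35 and -0.81, and Cadm1 was called higher in T127. Of the neutrophil list, 2 of 6 tested genes were called higher in the long-term cells (0.274% over all genes), S100a8 and S100a9 of 2 were called lower in T22, and these with Retnlg, G0s2 and Mmp8, of 6, were called lower in T127. The list summed to 34.8 against 105 CPM in T22 and 48.0 against 232 in T127. In T22 the pools overlapped, at 15.5 to 78.8 against 23.8 to 268.5 CPM, and the sum was higher in 1 of 4 pools. The granule genes Ngp and Camp were called higher in the long-term cells, at 22.4 against 1.14 and 19.4 against 0.480 CPM, but this rested on pool 7, with 155 and 136 CPM. The other 7 pools held 0.444 to 2.48 CPM of Ngp and 0 to 1.47 of Camp, under the 10 CPM needed for a call, although both genes are among the leaders of the long-term rebuilt group. Ighm, of B cells, was at 114 against 102, 216 against 206 and 111 against 33.7 CPM, and both B-cell genes that could be tested, Ighm and Cd79b, were called higher in T127 (1.95% over all genes), with 46.9 against 10.9 CPM of Cd79b there. Epcam, an epithelial adhesion molecule, stood at 65.7 against 165, 161 against 101 and 42.4 against 302 CPM, higher in T22 and lower elsewhere over all depths. At matched depth Epcam stood at 36.7 against 34.9, 64.0 against 41.5 and 74.5 against 182 CPM in the long-term cells and 27.7 against 71.1, 96.6 against 22.8 and 249 against 106 in T22, so that the order turned below 8000 UMIs in the former and from 3000 to 5000 UMIs in the latter.

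RNA from other cells was followed with 10 genes each of malignant cells, fibroblasts and T cells, chosen in each experiment for their ratio to all monocytes and macrophages. The malignant-cell genes summed to 128 CPM in long-term CD16-CDKN1C cells (pools 91.5 to 185) against 211 in the other clusters, and to 126.7 against 109 in T127. In T22 they summed to 439.6 CPM (398 to 485) against 248 (219 to 277), beside 378 in T cells and 324 in NK cells. Counted in UMIs per cell, T22 CD16-CDKN1C cells held 3.05, below the 3.47 of the other clusters but still above the 2.85 of T cells and 2.55 of NK cells. The fibroblast genes summed to 84.1 against 56.3 CPM in T22, 58.8 against 47.9 in the long-term cells and 16.2 against 15.2 in T127, and the T-cell genes to 42.1 against 45.8, 38.9 against 27.3 and 13.4 against 22.03.

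These sums stood beside some of the T22 differences. The 6 genes of at least 50 CPM with the highest ratio in T22 were Plac8, Ecrg4, Igfbp5, Ly6a, Epcam and Gsr, of which Plac8 alone was called. Ecrg4 (131 against 68.7 CPM) and Igfbp5 (134 against 80.1) are among the malignant-cell genes of the sum. The part of RNA from other cells in the T22 result was not tested. Haemoglobin genes stood at 4055 CPM, or 30.4 UMIs per cell, in long-term CD16-CDKN1C cells. The other clusters held 2795 CPM, or 32.6 UMIs per cell, and T cells and NK cells 31.3 and 26.9 UMIs per cell, so that the cluster was above its neighbours in CPM and below them per cell.

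**Figure D5:**
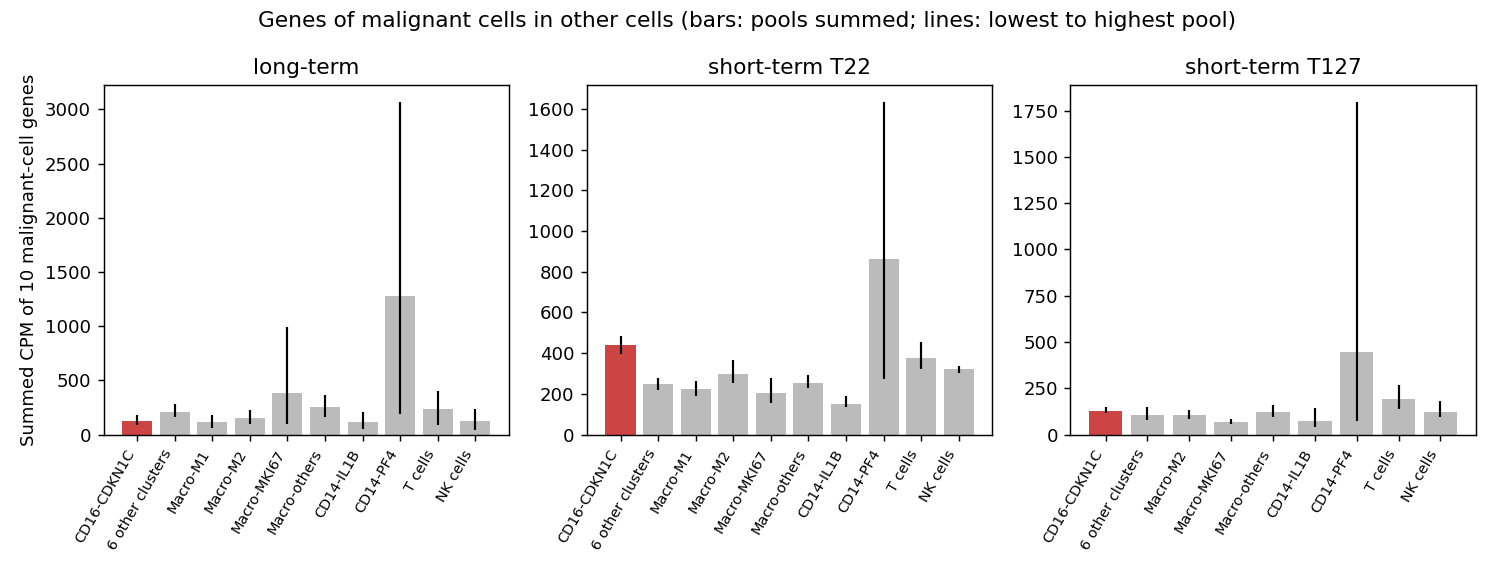
Summed CPM (y, from 0) of 10 genes of malignant cells in CD16-CDKN1C cells (red), in the 6 other clusters together and singly, and in T and NK cells (x), with lines from the lowest to the highest pool. In T22 CD16-CDKN1C (439.6) lies above T cells (378) and the 6 other clusters together (248), but below CD14-PF4 (864). In the long-term pools it lies below the other clusters together (128 against 211), but above Macro-M1 (117) and CD14-IL1B (116).

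Short-term CD16-CDKN1C cells of the 2 strains differed in more genes than the cells did from the clusters around them. Of 7989 genes, 479 (6.0%) were at least 2-fold higher in T22 and 864 (10.8%) at least 2-fold higher in T127. Strain, capture and RNA from the surrounding tumor cannot be told apart here. Of these 1343 genes, 1293 lay on the same side in the other clusters and 758 were also 2-fold apart there, where 1115 of 7953 genes (14.0%) were called. Most of the strain difference was thus shared in direction with the neighbouring clusters.

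The genes highest in T22 were Igfbp5, Npnt, Ecrg4, Wfdc18, Hist1h3c and Tlr12. Igfbp5, a binding protein of insulin-like growth factors, stood at 134 CPM in T22 and gave 0 UMIs in T127. Tlr12, a toll-like receptor, stood at 84.5 CPM in T22 and 2.23 in T127. The genes highest in T127 were Arg1, F7, Ctsk, Cxcl3, Cxcl13 and Slfn4. Arg1, the arginase of alternatively activated macrophages, stood at 272 CPM in T127 and 0.439 in T22, and the other clusters held 402 and 0.324. Ctsk, the protease cathepsin K, stood at 80.4 and 1.23 CPM, with T127 pools from 9.76 to 208.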

How the data were processed

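Single-cell RNA was captured in 16 pools of hashtagged tumor cells. The values are UMI counts per gene and cell as deposited; per the submitters' processing notes the authors used Cell Ranger 6.0.0 with GRCm38, and the deposited cell table gives their cluster names. The filter of 1000 genes in the study's methods (its reporting form gives a lower one) does not describe the deposited cells, of which 8635 held fewer, 34 of them members. Doublets were removed by the authors as the methods state, and none were called again. From the counts, UMIs were summed per set and experiment (pandas 2.3.3 and scipy 1.17.1, with numpy 2.4.6, under Python 3.11.15) and scaled to CPM; genes of 10 CPM in either set were compared with 1 CPM added, and 2-fold was the call. Pool totals were 34755906 to 55600377 UMIs. Intervals cover counting error only. For rebuilt groups, cells were thinned to 3000 UMIs, and 2000 variable genes, 30 principal components, 20 neighbours and Leiden clustering at resolution 1 were used (scikit-learn 1.9.0, igraph 0.11.9, leidenalg 0.10.2). Figures used matplotlib 3.10.9. Named genes were the label, nonclassical monocyte, cyclin-dependent kinase inhibitor and Fc receptor genes, the up to 4 highest of each other list, genes of 50 CPM in the long-term experiment and 2-fold apart the same way in all 3, and the 6 most unequal genes of each short-term experiment and between strains. The cells and the gene lists were chosen with earlier results of these data known. On simulated counts with 200 genes changed 4-fold, 199 (long-term), 200 (T22) and 199 (T127) were recovered, with 0, 0 and 12 false calls. Alternatives covered the UMI minimum, thinning, pool weighting, filters, pseudocount, fold, clustering resolution and leaving out each pool.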

Additional observations from a re-analysis of the deposited data

Results flagged for a closer look

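A pool that stood apart from the others of its experiment was looked for in 112 gene and experiment pairs with Dixon's criterion, which chance meets in about 1 in 20 groups, and 10 met it. In long-term CD16-CDKN1C cells these were Treml4 in pool 4 (21.67 CPM, the others 11.94 to 16.21), Ecrg4 in pool 8 (46.15, the others 22.88 to 30.79), Igfbp5 in pool 8 (33.05, the others 10.64 to 19.06), Hspa1b in pool 7 (249.2, the others 89.94 to 146.1) and Hspa1a in pool 7 (364.5, the others 193.7 to 246.6). In T22 they were all in pool 4, with Ace at 35.99 CPM (the others 21.86 to 24.24), Itgal at 145.0 (126.0 to 128.7), Ifitm6 at 54.16 (30.75 to 33.33) and Cxcl13 at 48.82, where the others were at 0. In T127 Mgl2 stood at 177.9 CPM in pool 3, the others at 23.8 to 46.5.

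Of 30 genes compared between the short-term experiments, 2 moved in opposite directions in every pool, and the difference was not tested. The log2 ratio of CD16-CDKN1C cells over the other clusters was -0.27 in T22 and 1.25 in T127 for Cx3cr1, and 0.66 and -2.80 for Epcam. At matched depth Cx3cr1 stayed lower in T22 and higher in T127 in each range of UMIs, whereas Epcam in T22 was lower from 3000 to 5000 UMIs, at 27.7 against 71.1 CPM.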

How the results depend on the processing

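No called value changed sign when 1 setting was changed over all cells. Within matched ranges of UMIs the order of several genes did turn, as given with Ace, Plac8, Ifitm6, Ly6c2, Cxcl2, H2-Ab1, Cd74, Mki67, Mgl2 and Epcam, among others. The alternatives by range of UMIs and without the rebuilt group were chosen after seeing the data. Counts of called genes are given as higher and lower, first as reported. In the long-term cells (19 and 33) they came to 12 and 225 with equal weight for each cluster, 5 and 9 with a 50 CPM minimum, 9 and 9 with 10 CPM added, 39 and 121 at 1.5-fold and 11 and 8 at 3-fold. The lower count was 20 without the top 5% of cells and 13 after thinning, and the higher count was 7 without the rebuilt group. Counts by range of UMIs used a 50 CPM minimum and are to be set beside the 5 and 9. They were 17 and 29 from 3000 to 5000 UMIs, 11 and 6 from 5000 to 8000 and 2 and 16 at 8000 or more.

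In T22 (11 and 52) they came to 47 and 85 with at least 1000 UMIs or no minimum, 18 and 85 after thinning, 5 and 213 with equal weight, 1 and 24 with a 50 CPM minimum, 3 and 21 with 10 CPM added, 48 and 230 at 1.5-fold and 3 and 7 at 3-fold. The higher count was 3 without the rebuilt group. By range of UMIs, again at a 50 CPM minimum and so beside 1 and 24, the counts were 25 and 97, 23 and 19, and 4 and 16. In T127 (155 and 303) they came to 66 and 99 with a 50 CPM minimum, 62 and 162 with 10 CPM added, 590 and 673 at 1.5-fold and 26 and 157 at 3-fold. The higher count was 241 with equal weight. From 5000 to 8000 UMIs, at a 50 CPM minimum and so beside 66 and 99, the counts were 54 and 141. Other T127 ranges held under 500000 UMIs in a set and gave no value.

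The share of monocytes and macrophages was 38.7%, 53.5% and 18.3% in the long-term, T22 and T127 experiments with at least 1000 UMIs, the same with no UMI minimum, and 24.0%, 21.0% and 10.2% with at least 5000. The T22 cells numbered 4205 with at least 1000 UMIs or no minimum and 894 with at least 5000. Leaving out each pool gave counts of 18 to 26 and 26 to 37 in the long-term cells, 10 to 13 and 37 to 72 in T22 and 147 to 205 and 316 to 355 in T127, and shares of 29.1 to 31.1%, 31.0 to 32.0% and 12.7 to 14.2%. Between strains it gave 470 to 511 and 857 to 911 genes. Of the values for named genes and lists, 1193 stayed within the spread between pools and 137 moved beyond it. The cause of these changes was not tested. No paired analysis was possible because, between the experiments, pool numbers only name captures, and no value comes from a test. Within pools, CD16-CDKN1C cells and the other clusters were set side by side as values. Clustering resolutions of 0.5 and 1.5 were also run, and their shares stand with the rebuilt groups.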
